A study of Mus musculus with 192 samples.

Results

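The comparison set HTT-10150, a small interfering RNA (siRNA) against full-length HTT, against HTT-634.486, the labels' name for HTT-634 and HTT-486 given together, both aimed at HTT1a. All mice of the comparison were zQ175, in which human HTT exon 1 with an expanded CAG repeat has been knocked into the mouse gene to model Huntington's disease, and all their hippocampi were collected at 10 months of age. Members were chosen by their group labels: 16 libraries with HTT-10150 and 16 with HTT-634.486, so 32 of the 192 libraries of the series. Each library came from 1 mouse. In the regimen 6[4]10 the mice were treated at 6 months, and in 2.6[8]10 at 2 and again at 6 months. Females and males were balanced, with 4 of each in every group of 8, and the regimen was kept as a block in the fit. Mice of the same genotype and regimens given a non-targeting siRNA (NTC) or left untreated, 8 in each group, served for levels and for side-by-side values. Mice of another genotype or age were also used, outside the comparison itself. The same contrast was taken in 32 wild-type mice of these regimens, and untreated wild-type mice were the reference for the effect of genotype. It was also taken in 16 zQ175 mice treated at 2 and collected at 6 months of age (regimen 2[4]6). The labels give neither the dose, the route of delivery, the strain background nor the number of expanded alleles, and every mouse of both arms carries the knock-in. A dissected hippocampus is a mixture of cells, so fewer cells of a type and less RNA per cell cannot be told apart.

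Huntingtin is a large scaffold protein for vesicle transport and autophagy that neurons express at high levels. When the CAG repeat in its first exon is expanded, part of the transcript is not spliced to the next exon but ends early within the first intron; this short transcript, HTT1a, encodes the toxic exon 1 protein. An siRNA loaded into Argonaute cleaves a complementary transcript, so one directed at the downstream exons lowers full-length Htt and leaves the short transcript, whereas siRNAs against the intron lower HTT1a and spare the spliced messenger RNA. Exon 1 is the part that the full-length and the short transcript have in common. Its coding part in the wild-type mouse gene is shown, from the GENCODE vM21 transcript on the plus strand of GRCm38, chr5:34761907-34762109. Capitals mark the 7 glutamine codons of the wild-type mouse gene (6 CAG and 1 CAA), the place of the expanded repeat in zQ175. The knocked-in allele holds human exon 1 there, whose sequence was not in the sources used here and is not shown.
Htt exon 1 coding part: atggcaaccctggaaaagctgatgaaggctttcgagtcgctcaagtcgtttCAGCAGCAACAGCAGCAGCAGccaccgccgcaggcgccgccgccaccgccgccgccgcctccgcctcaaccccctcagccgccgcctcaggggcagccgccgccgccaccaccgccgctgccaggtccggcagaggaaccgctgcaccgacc
Gene-level counts give no separate value for HTT1a, so the level of this target of the pair was not measured here, and the siRNA sequences were not used here.

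RNA was selected for polyA tails and counted per gene. Total counts per library ran from 13M to 32.9M (M, mega), with a median of 18.8M. The medians were 24.9M in both arms of 6[4]10, 16.8M with HTT-10150 in 2.6[8]10 and 16M with HTT-634.486 there. No 2 libraries held identical values, and the highest correlation between any 2 was 0.99345. Xist and Y-linked transcripts went against the labelled sex in 2 of the 32 mice, female_4 and male_4 of the 6[4]10 HTT-10150 group, and matched it in the other 30. Female_4 had 1.85 CPM of Xist (counts scaled to the library total) and male_4 had 823, while 4 Y-linked genes summed to 169.9 and 0.06 CPM. Counts that lead a paragraph are given without these mice where they differ by over 1.5 times.

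Htt (ENSMUSG00000029104, chromosome 5, 34761740 to 34912534), which encodes huntingtin, was lower with HTT-10150. Its level was 82.6 ± 31.3 CPM (SD, n = 16) with HTT-10150 and 139.9 ± 9.03 with HTT-634.486, 40.99% lower (permutation test within regimen, two-sided, p = 1e-05, the smallest that 100000 shuffles can give). In 6[4]10 the HTT-10150 mice had 159.8, 83.57, 67.36 and 55.22 CPM (females 1 to 4) and 122.3, 69.39, 81.47 and 69.72 CPM (males 1 to 4). In that regimen 6 of the 8 lay below every HTT-634.486 mouse (121.9 to 147.7, median 136.6 CPM), while female_1 lay above them all and male_1 among them. In 2.6[8]10 the HTT-10150 mice had 67.22, 69.32, 56.4 and 62.91 CPM (females) and 57.26, 57.53, 113.9 and 128.0 CPM (males), against 124.6 to 153.7 (median 143.6) with HTT-634.486. There 7 of the 8 lay below every mouse of the other arm, male_4 being the exception.

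The Htt levels of the 16 HTT-10150 mice fell into separate sets, 12 between 55.22 and 83.57 CPM and 4 between 113.9 and 159.8. Means were 35.7% lower in 6[4]10 (88.6 ± 34.99 against 137.7 ± 8.44 CPM, n = 8, exact permutation p = 0.00482) and 46.2% lower in 2.6[8]10 (76.6 ± 28.1 against 142.2 ± 9.58 CPM, n = 8, exact permutation p = 0.000311, both over 12870 splits and two-sided). The SD of Htt was thus several times larger in the HTT-10150 arm than in the other. In edgeR's fit the change was -0.76 ± 0.13 on the log2 scale (SE, adjusted p = 0.0012). The difference between the regimens, -0.27 ± 0.26, was about the size of its error and was not called. Against NTC mice, which lay at 124.8 to 166.2 and 131.7 to 168.9 CPM in the 2 regimens, the change of Htt was -0.80 ± 0.10 with HTT-10150 (adjusted p = 4.27e-08) and -0.04 ± 0.09 with HTT-634.486. Untreated mice had 129.7 to 169.1 and 139 to 158.7 CPM.

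**Figure D1:**
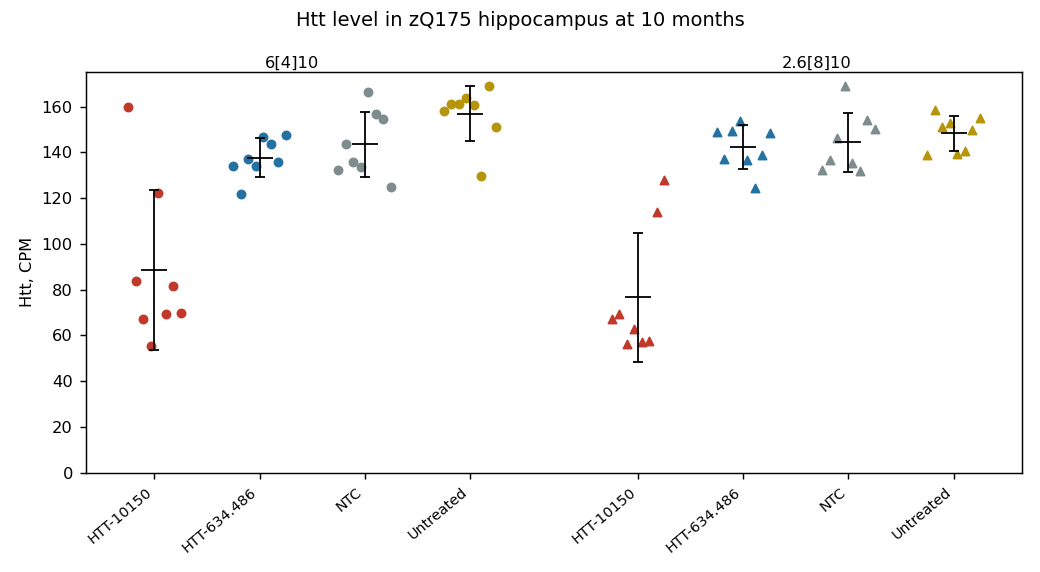
Htt level in CPM (vertical axis, from 0) in each zQ175 mouse of 10 months, by treatment and regimen, with the mean and SD of each group of 8. In the HTT-10150 groups 12 mice sit between 55.22 and 83.57 CPM and 4 between 113.9 and 159.8, and the other 6 groups have no mouse below 121.9.

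Of 15743 genes tested, 0.959% differed between the arms at a Benjamini-Hochberg adjusted p under 0.05 in edgeR's quasi-likelihood test. With HTT-10150, 89 were higher (0.565%) and 62 lower (0.394%). Here and below, rose or higher means a higher level with HTT-10150 than with HTT-634.486, and fell or lower the opposite. The called differences had a median size of 0.20 on the log2 scale, 11 of them passed 1.5-fold and 3 passed 2-fold. All called genes had the same sign in both regimens and in both sexes, which a call over these same libraries together favours. The median change over all genes tested was -0.0011. Genes named below by the size of their change averaged 1 or more in log2 CPM. Called genes under that level, picked after their values were seen, include Tnfrsf13c, a receptor of B cells (0.94 ± 0.13), Tyrp1, a pigment enzyme (0.92 ± 0.23), and Dusp27 (0.91 ± 0.20).

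**Figure D2:**
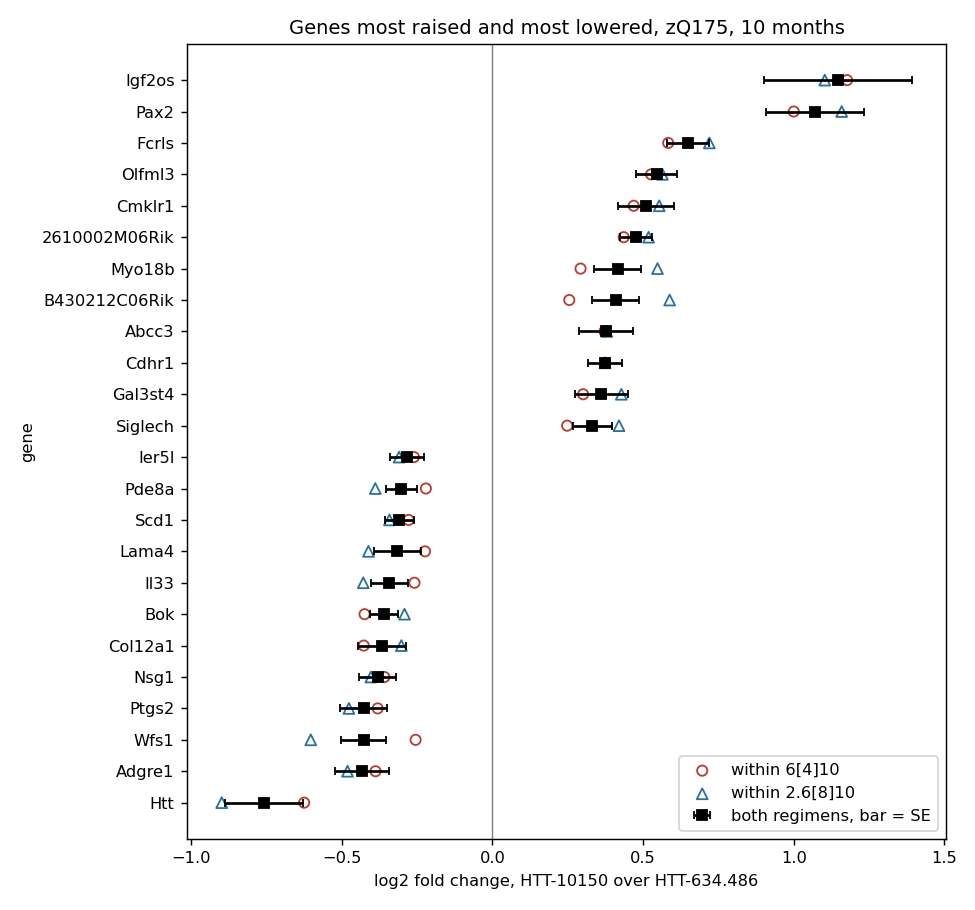
Log2 fold change of HTT-10150 over HTT-634.486 (horizontal axis) for the 12 most raised and 12 most lowered called genes among those with a mean log2 CPM of at least 1: black squares with SE for both regimens together, open circles for 6[4]10 and open triangles for 2.6[8]10. The genes were chosen for 1 sign in both regimens and sexes, so every circle and triangle lies on the same side of 0 as its square. The squares run from Igf2os at 1.15 to Htt at -0.76.

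Microglia, the resident macrophages of the brain, keep a surveying state marked by the receptors and secreted proteins of the homeostatic list, and in disease they lose these transcripts and gain others, such as Clec7a, Itgax and Cst7. Of 24 homeostatic microglia markers tested, 10 rose and 0 fell, with a list median of 0.10, where 0.565% of all genes rose. Fcrls, an Fc receptor-like protein made by microglia, rose by 0.65 ± 0.07 (adjusted p = 2.08e-06). It stood at 19.07 to 32.23 CPM (median 26.07) with HTT-10150 and at 10.41 to 21.54 (median 16.39) with HTT-634.486, so 13 of the 16 HTT-10150 mice lay above every mouse of the other arm. Olfml3, a secreted olfactomedin protein of microglia, rose by 0.55 ± 0.07 (adjusted p = 1.23e-05), from 10.65 to 20.62 CPM (median 16.26) with the pair to 17.48 to 30.13 (median 23.11), and 12 of 16 mice lay above the other arm. Both genes thus separated most but not all mice of the 2 arms.

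The other 8 called members changed by smaller amounts. They were the sialic acid-binding lectin Siglech (0.33 ± 0.06, adjusted p = 0.00289), the lysophosphatidylserine receptor Gpr34 (0.33 ± 0.07, adjusted p = 0.00421), the membrane protein Tmem119 (0.31 ± 0.06, adjusted p = 0.00146), the selectin ligand Selplg (0.27), the growth factor receptor Csf1r, on whose signal microglia depend (0.26 ± 0.04, adjusted p = 0.000368), the purinergic receptors P2ry13 (0.25) and P2ry12 (0.24), and the fractalkine receptor Cx3cr1 (0.23 ± 0.04, adjusted p = 0.000419). Other microglial genes of the list did not pass, such as Itgam (0.07), Trem2 (0.06) and Aif1 (-0.01). Over the list, 19 members were positive and 5 negative. The summed level of the list overlapped between the arms, with medians of 1047 (6[4]10) and 1121 CPM (2.6[8]10) for HTT-10150 and 989 and 1037 CPM for HTT-634.486. Stab1, a scavenger receptor of macrophages that is not on the list and was picked after its value was seen, rose by 0.30 ± 0.06 (adjusted p = 0.00228).

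Of 20 genes of activated microglia tested, 0 rose and 2 fell, where 0.394% of all genes fell; 17 were negative and the median was -0.09. Clec7a, the beta-glucan receptor Dectin-1, which GENCODE vM21 lists as a polymorphic pseudogene, fell by 0.99 ± 0.20 (adjusted p = 0.00568) at a low level, with medians of 0.9264 and 1.23 CPM with HTT-10150 and 2.019 and 2.783 CPM with HTT-634.486 (6[4]10 and 2.6[8]10). Cd52, a small surface glycoprotein of leukocytes, fell by 0.68 ± 0.14 (adjusted p = 0.00568), with medians of 1.077 and 1.873 CPM against 2.188 and 3.044. The arms overlapped in both genes. Adgre1, the macrophage marker F4/80, fell by 0.43 ± 0.09 (adjusted p = 0.00568), with 8 of 16 HTT-10150 mice below every mouse of the other arm, so not every macrophage transcript was higher with HTT-10150.

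Among the immune and inflammatory lists, no complement gene (0 of 14), interferon-stimulated gene (0 of 23) or antigen presentation gene (0 of 16) was called, with medians of -0.10, -0.13 and -0.15 and negative values in 21 of 23 interferon genes and 14 of 16 antigen presentation genes. Of all genes 0.959% were called, so 0 calls in lists of this size do not set them apart. Only 3 of 19 markers of blood macrophages, lymphocytes and neutrophils passed the filter on low counts. Cxcl10, a chemokine of the astrocyte reactivity list, fell by 1.15 ± 0.24 (adjusted p = 0.00839) at medians under 1 CPM in all 4 groups. It was the 1 called gene of 18 in that list, whose median was -0.17. Il33, an alarmin that oligodendrocytes and astrocytes store in the nucleus, fell by 0.34 ± 0.06 (adjusted p = 0.00146), with 10 of 16 mice below every HTT-634.486 mouse.

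The values of both arms against NTC mice, and then against untreated mice, are set side by side. Both comparisons use the same 16 NTC libraries, so they are not independent of each other. They called 3.94% of 16025 genes for HTT-10150 (631, with 345 raised and 286 lowered) and 12.8% for HTT-634.486 (921 raised and 1129 lowered). Fcrls was 0.68 above NTC with HTT-10150 (adjusted p = 6.6e-11) and 0.03 with the pair, and Olfml3 0.56 and 0.01. For Siglech the values were 0.29 (adjusted p = 0.00315) and -0.04, for P2ry12 0.24 and 0.00, and for Cx3cr1 0.23 and 0.00. Csf1r had the opposite layout, -0.04 with HTT-10150 and -0.30 with the pair (adjusted p = 1.86e-07), as did Tmem119 (0.13 and -0.18, adjusted p = 0.171 and 0.0274) and P2ry13 (0.06 and -0.19). Clec7a was 0.18 ± 0.23 above NTC with HTT-10150 and 1.17 ± 0.22 with the pair (adjusted p = 0.000141), and Cd52 -0.11 and 0.57 (adjusted p = 0.0112). The 10 homeostatic calls therefore include genes that differed from NTC in the HTT-10150 arm and genes that differed in the HTT-634.486 arm. The 2 references did not give the same layout. Against untreated mice, which both comparisons again share, Fcrls was 0.29 with HTT-10150 and -0.36 with the pair (adjusted p = 0.00518 and 9.95e-05), Olfml3 0.32 and -0.22 (0.0012 and 0.00958) and Siglech 0.11 and -0.22 (0.266 and 0.00889). For Csf1r the values were -0.02 and -0.28, and for Cx3cr1 0.23 and -0.00, close to those against NTC. Clec7a was 1.27 and 2.26 (adjusted p = 0.00101 and 3.71e-10) and Cd52 0.52 and 1.20 (0.0403 and 3.39e-07), so both arms stood above untreated mice in these genes of activated microglia. Over the homeostatic list, 14 of its tested members rose and 0 fell against NTC with HTT-10150 (median 0.24), and 6 rose and 3 fell with the pair (median 0.02).

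**Figure D3:**
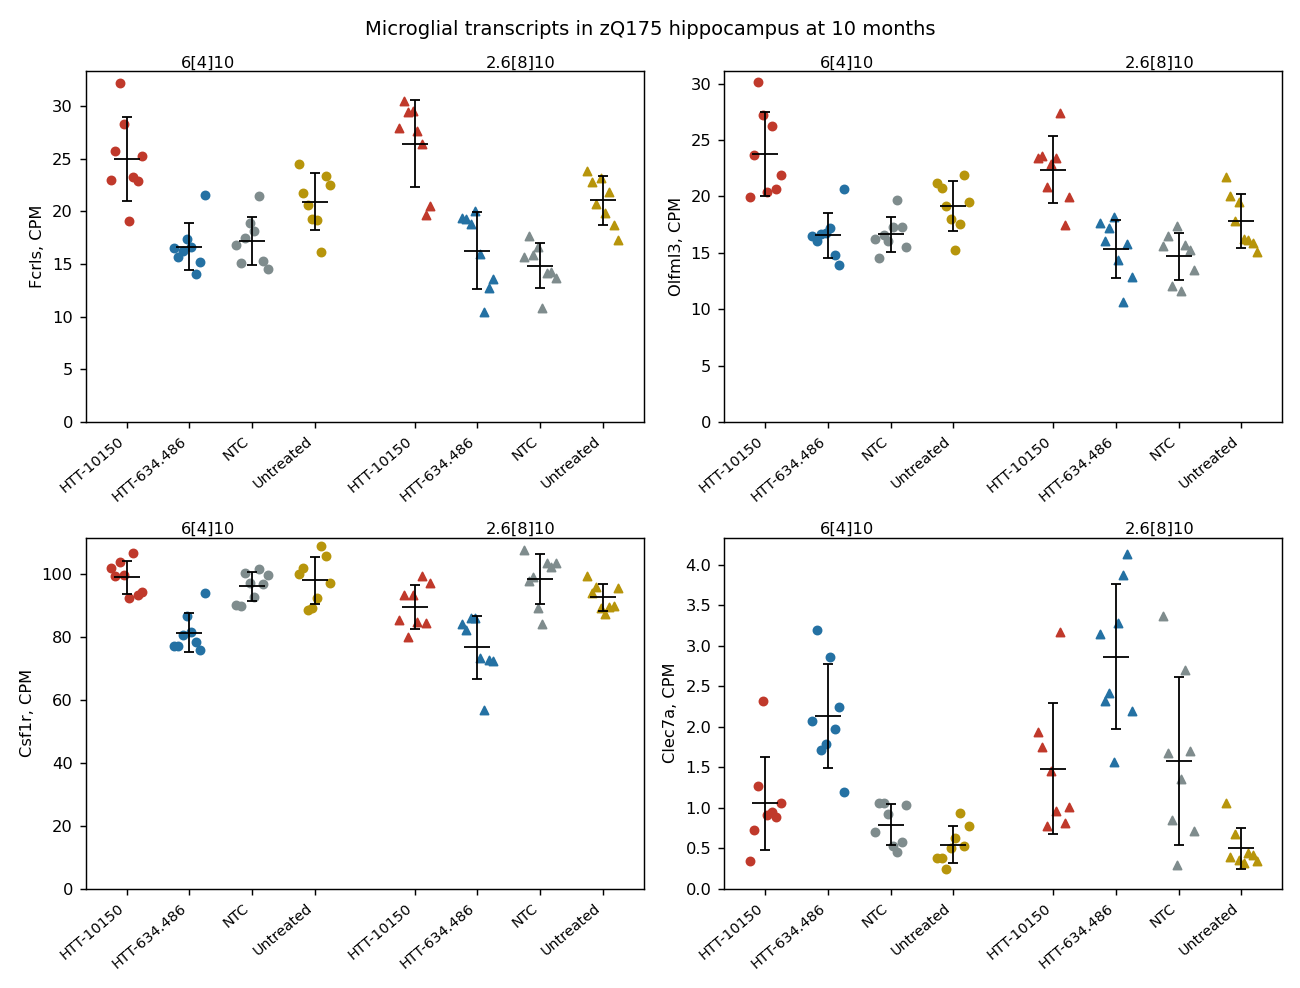
Level in CPM (vertical axes, from 0) of 4 microglial genes in each zQ175 mouse of 10 months by treatment and regimen, with the mean and SD of each group of 8. Fcrls and Olfml3 are highest in the HTT-10150 groups, Csf1r is lowest in the HTT-634.486 groups, and Clec7a is highest in the HTT-634.486 groups.

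Among neuronal genes, Nsg1 (chromosome 5, 38137192 to 38159907), a protein of neuronal endosomes that helps recycle glutamate receptors, fell by 0.38 ± 0.06 (adjusted p = 0.000634). Against NTC it was -0.39 with HTT-10150 (adjusted p = 8.83e-08) and -0.01 with the pair. Of the HTT-10150 mice of 6[4]10, the females had 230.5, 199.4, 153.6 and 136.9 CPM and the males 238.4, 172.2, 196.6 and 176.8, in the order of their numbers. In 2.6[8]10 the females had 173.4, 177.1, 165.8 and 158.1 CPM and the males 153.04, 164.3, 229.5 and 239.8, and the HTT-634.486 mice of both regimens had 228.8 to 257.6. So 12 of 16 HTT-10150 mice lay below every HTT-634.486 mouse, and the 4 that did not are the 4 mice with the highest Htt (female_1 and male_1 of 6[4]10, male_3 and male_4 of 2.6[8]10). The same 4 mice had 22.97, 19.07, 19.65 and 20.52 CPM of Fcrls in that order, of which 3 lie within the HTT-634.486 range.

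Because the 16 Htt levels fall into separate sets, the relation of Htt with other genes was taken within the 12 HTT-10150 mice of the lower set and within the 16 HTT-634.486 mice, a choice made after the levels were seen. The 10 genes were the 5 raised and 5 lowered named genes of smallest adjusted p, which gives 20 relations. Nsg1 was related to Htt in the 12 mice, with Pearson's r = 0.905 (permutation p = 0.0004, adjusted p = 0.008) and Spearman's rho = 0.8 (permutation p = 0.00552, adjusted p = 0.0769), on log2 levels centred by regimen. Without the 2 mice farthest from the median Htt, r was 0.76. Within 6[4]10 r was 0.968 (n = 6), and within 2.6[8]10 it was 0.702 (n = 6, permutation p = 0.123), so the relation was clearer in 1 regimen than in the other and the rank test did not pass after adjustment. In the HTT-634.486 mice r for Nsg1 was 0.452 (permutation test, adjusted p = 0.187). No other relation passed in either arm.

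Wfs1 (chromosome 5, 36966104 to 36989205), a membrane protein of the endoplasmic reticulum abundant in CA1 pyramidal cells, fell by 0.43 ± 0.08 (adjusted p = 0.00146), from medians of 64.19 and 90.34 CPM with HTT-634.486 to 54.43 and 54.1 CPM (6[4]10 and 2.6[8]10). Only 4 of 16 mice lay below all HTT-634.486 mice. Bok (chromosome 1, 93685660 to 93695764), a BCL-2 family protein abundant in hippocampal neurons, fell by 0.36 ± 0.05 (adjusted p = 1.79e-05), and here 13 of 16 mice, at 23.89 to 37.88 CPM (median 30.32), lay below every HTT-634.486 mouse (34.93 to 45.06, median 39.72). Against NTC, Wfs1 was -0.08 with HTT-10150 and 0.35 with the pair (adjusted p = 1.98e-05), and Bok 0.15 and 0.51 (adjusted p = 2.63e-10). In untreated mice, zQ175 against wild type (WT), both were lower, by -1.09 and -1.0 on the log2 scale. Both genes thus had their higher value with the pair. Against untreated mice, Wfs1 was -0.06 and 0.37 and Bok -0.15 and 0.21.

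Ptgs2, the inducible cyclooxygenase of active neurons, fell by 0.43 ± 0.08 (adjusted p = 0.00146; -0.26 against NTC with HTT-10150 and 0.17 with the pair). Pde8a, a cyclic AMP phosphodiesterase, fell by 0.30 ± 0.05 (adjusted p = 0.000499), with 11 of 16 mice below the other arm, and Ier5l, an immediate early response family member, by 0.28 ± 0.06 (adjusted p = 0.00426). Vip, a neuropeptide of interneurons, fell by 0.28 ± 0.07 (adjusted p = 0.0243). Some synaptic and channel lists held a single call, where 0.959% of all genes were called in either direction. Syn2, a synaptic vesicle protein, rose by 0.16 (1 of 24 presynaptic genes), Cacna1g, a T-type calcium channel, by 0.24 (1 of 31 calcium genes) and Scn9a, a sodium channel, by 0.32 (1 of 27 potassium and sodium channels). No glutamate receptor or postsynaptic gene (0 of 30), GABA-A subunit (0 of 12) or immediate early gene (0 of 25, median -0.16, 23 negative) was called. At the share called among all genes, 0 calls in lists of this size do not set them apart. Field markers gave 0 of 16 dentate granule genes, 1 of 11 CA1 genes (Wfs1), 1 of 17 CA3 and CA2 genes (Bok) and 1 of 16 interneuron genes (Vip).

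Igf2os and Pax2, the most raised of the named genes, were far higher in untreated zQ175 than in untreated WT mice. Pax2, a developmental transcription factor of the midbrain, eye and kidney, rose by 1.07 ± 0.16 (adjusted p = 0.000261), and in untreated mice it was 4.22 log2 units higher in zQ175 than in WT. Its level was 4.044 to 24.55 CPM (median 8.213) with HTT-10150 and 1.469 to 7.111 (median 5.039) with HTT-634.486, with 10 of 16 mice above the other arm. In 6[4]10 male_2 with HTT-10150 stood at 24.55 and the next mouse at 11.23 CPM, and the call held without male_2. Against NTC, Pax2 was 0.43 with HTT-10150 (adjusted p = 0.124) and -0.65 with the pair (adjusted p = 0.00754), and against untreated mice -0.32 and -1.41 (adjusted p = 0.194 and 2.34e-08). It was the only called gene of the 16 tested developmental factors, of which 12 had positive values (median 0.28) and 14 more did not pass the filter on low counts.

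Igf2os, an RNA antisense to the growth factor gene Igf2, rose by 1.15 ± 0.24 (adjusted p = 0.0116; 3.35 higher in untreated zQ175 than in WT) at 1.146 to 12.26 CPM against 0.2449 to 3.974. It was 1.17 with HTT-10150 and 0.03 with the pair against NTC, and -0.18 and -1.32 against untreated mice (adjusted p = 0.661 and 0.000115). The strand setting of the counting is not stated, so its reads cannot be told apart from those of Igf2, which had -0.47 ± 0.45 (adjusted p = 0.713). Cdhr1, a cadherin of photoreceptors, rose by 0.37 ± 0.06 (adjusted p = 0.000159), with 11 of 16 mice above the other arm, and it was 1.10 higher in untreated zQ175 than in WT mice. B430212C06Rik, a transcript of unstated function, rose by 0.41 ± 0.08 and was 1.03 higher in untreated zQ175. Myo18b, an unconventional myosin of muscle, rose by 0.42 ± 0.08 (adjusted p = 0.00209), and Cmklr1, the chemerin receptor, by 0.51 ± 0.09 (adjusted p = 0.00146). Abcc3, an efflux transporter, and Gal3st4, a sulfotransferase, rose by 0.38 ± 0.09 and 0.36 ± 0.09 (adjusted p = 0.0245 and 0.0281). By genotype in untreated mice, Myo18b (0.12), Cmklr1 (0.14), Abcc3 (0.08) and Gal3st4 (0.06) were not called. The same held for Fcrls (0.05), Olfml3 (0.10) and Siglech (0.10). In Abcc3 the call was lost without male_2 or female_1 of the HTT-634.486 groups of 2.6[8]10 and 6[4]10, or without male_2 of 6[4]10 HTT-10150 (adjusted p up to 0.0518), and in Gal3st4 without either of the first 2 (up to 0.0566). Both calls were also lost with either block, by replicate number or by library number (adjusted p up to 0.141 and 0.198), that of Abcc3 without the 2 mice of mismatched sex transcripts, and that of Gal3st4 without the sex term or with all 64 zQ175 libraries.

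The gene 2610002M06Rik (chromosome X, 107782751 to 107816334) rose by 0.48 ± 0.05 (adjusted p = 3.18e-06). It stood at 50.99 to 63.39 CPM (median 58.28) with HTT-10150 and at 32.26 to 55.84 (median 41.44) with HTT-634.486, and 12 of 16 mice lay above the other arm. Against NTC it was -0.01 with HTT-10150 and -0.49 with the pair (adjusted p = 5.62e-13), so the HTT-634.486 mice were the ones that stood away from the controls. The same contrast gave 0.27 in WT mice (adjusted p = 0.0405) and 0.37 in zQ175 mice of the third regimen, collected at 6 months (adjusted p = 0.0171). The gene thus differed in the same direction in mice without the knock-in.

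**Figure D4:**
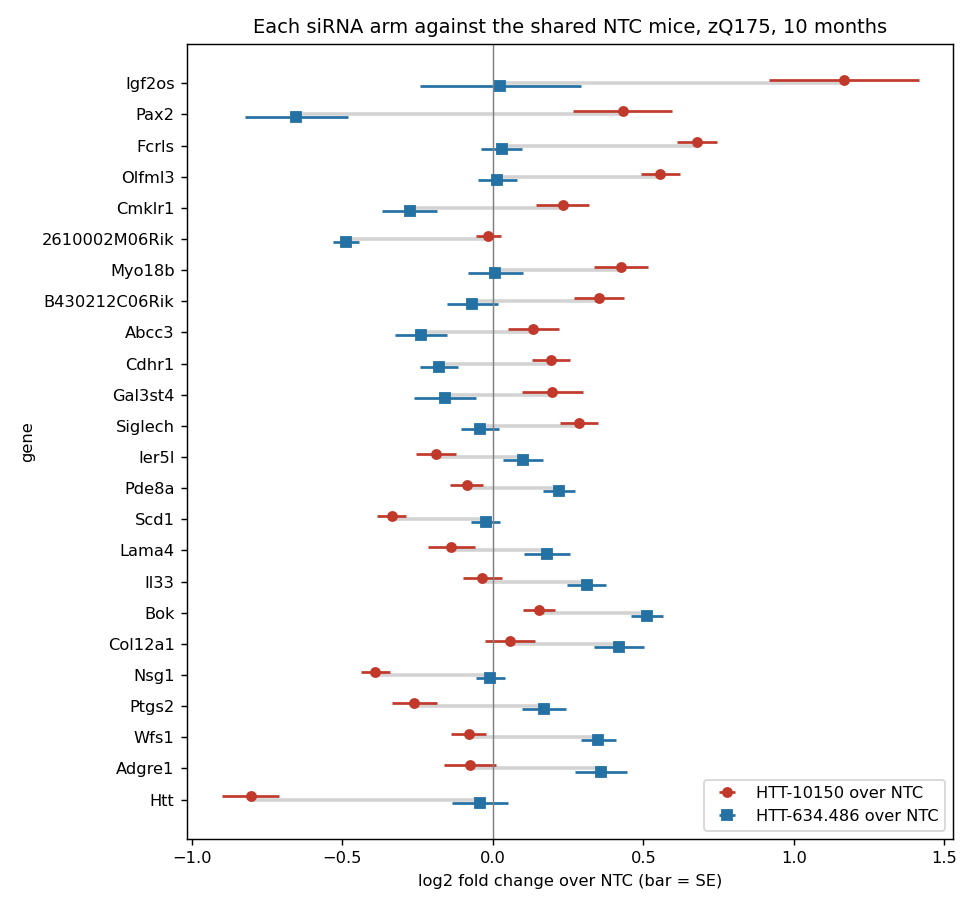
Log2 fold change over NTC (horizontal axis, bars are SE) of the same 24 genes, with a mean log2 CPM of at least 1, for HTT-10150 (red circles) and HTT-634.486 (blue squares), which share the 16 NTC mice. Fcrls, Olfml3, Igf2os, Nsg1, Scd1 and Htt have the HTT-634.486 value near 0, and 2610002M06Rik, Wfs1, Il33 and Col12a1 have the HTT-10150 value near 0.

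Myelin genes were lower in number. Of 18 oligodendrocyte and myelin genes tested, 0 rose and 3 fell (0.394% of all genes fell), 17 were negative and the median was -0.14. Mal, a raft protein of compact myelin, fell by 0.28 ± 0.05 (adjusted p = 0.00189), from medians of 278.1 and 265.1 CPM to 240.3 and 200.4. The tight junction protein Cldn11 fell by 0.19 ± 0.05 (adjusted p = 0.0374) and Mbp, myelin basic protein, by 0.16 ± 0.04 (adjusted p = 0.045). All 3 calls were lost with the number in the library names as a block (adjusted p = 0.0808, 0.188 and 0.182 in the same order). The calls of Cldn11 and Mbp were also lost in 15 and 22 of 32 fits that left out 1 mouse, whereas 5 members were called without the 2 mice whose sex transcripts went against their labels. Outside the list, and picked after their values were seen, Fa2h, which hydroxylates the fatty acids of myelin lipids, fell by 0.26 ± 0.05 (adjusted p = 0.000852), Tspan2, a tetraspanin of oligodendrocytes, by 0.24 ± 0.05 and Prr18 by 0.23 ± 0.04. Oligodendrocyte precursor markers gave 0 calls of 9 (median -0.08).

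Lipid genes gave 1 call in the fatty acid list: Scd1, the stearoyl-CoA desaturase, fell by 0.31 ± 0.05 (adjusted p = 0.000289), with -0.34 against NTC for HTT-10150 (adjusted p = 4.77e-06) and -0.02 for the pair. Sterol synthesis had 0 calls of 24 (median 0.03). The matrix genes Col12a1, a fibril-associated collagen, and Lama4, a laminin of vessel basement membranes, fell by 0.37 ± 0.08 and 0.31 ± 0.08 (adjusted p = 0.0103 and 0.0374). The call of Lama4 was lost in 14 of 32 fits that left out 1 mouse. It was also lost with limma-voom, without the filter on low counts, without the sex term and without the 2 mice of mismatched sex transcripts. Against NTC, Col12a1 was 0.06 with HTT-10150 and 0.42 with the pair (adjusted p = 0.000343).

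Markers of other cells that a dissection can hold had no called gene: endothelium 0 of 14 (all 14 negative, median -0.08), pericytes and smooth muscle 0 of 12 (all 12 negative, -0.11), fibroblasts and meninges 0 of 10 (9 negative, -0.23), astrocytes 0 of 16 (15 negative, -0.07), striatal neurons 0 of 17 (-0.09) and choroid plexus and ependyma 0 of 12 (10 negative, median -0.75). Of all genes 0.959% were called, so 0 calls in lists of this size do not set them apart. The summed choroid plexus level varied widely between mice, from 60.83 to 3394 CPM (median 106.4) and from 53.37 to 5227 (106.6) with HTT-10150 and from 45.57 to 5068 (277.7) and 46.16 to 5532 (78.85) with the pair, in 6[4]10 and 2.6[8]10. With this level as a covariate, 10 homeostatic microglia genes and 4 myelin genes were called in the same directions, and 212 genes in all, of which 105 fell, against 62 without it. The part of the other cell types in these differences was not tested.

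Calls in the lists tied to huntingtin and to siRNA action stand beside a share of 0.959% called among all genes. Among 24 tested huntingtin partners only Htt itself was called, RNA interference genes gave 0 of 17 and innate RNA sensors 0 of 14. Of 15 mismatch repair genes and modifiers of repeat expansion, Rrm2b, a ribonucleotide reductase subunit, rose by 0.12. Of 24 proteasome subunits, Psmc1 and Psmd1 rose by 0.09 ± 0.02 and 0.08 ± 0.02 (adjusted p = 0.0132 and 0.0466), with 21 positive values and a median of 0.03. Chaperones (24), endoplasmic reticulum stress genes (21), autophagy genes (30), oxidative phosphorylation subunits (30) and ribosomal proteins (32) gave 0 calls each. Among 18 clock genes, the circadian factor Npas2 fell by 0.25 ± 0.05 (adjusted p = 0.00426) and the nuclear receptor Nr1d1 by 0.12 ± 0.03 (adjusted p = 0.0269); the median was -0.06.

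The genotype contrast shows how the genes that zQ175 itself changes stood between the 2 arms. Untreated zQ175 mice, none of which enters the siRNA comparison, differed from untreated WT mice in 4319 of 15527 genes (27.8%; 2084 raised, 2235 lowered). Of all genes tested here, 0.565% were higher with HTT-10150 and 0.394% lower. Of 2082 zQ175-raised genes tested here, 46 were higher with HTT-10150 (2.21%) and 1 lower (0.048%), 71.8% had positive values and the median was 0.03. Of 2228 zQ175-lowered genes, 31 were lower with HTT-10150 (1.39%) and 5 higher (0.224%), 66.2% had negative values and the median was -0.02. Among 11168 genes not called by genotype, 48.2% had positive values. With the choroid plexus level as a covariate, 54 and 57 took the place of 46 and 31. In the 10-month zQ175 mice these genes thus stood slightly further in the zQ175 direction with HTT-10150, by a few hundredths of a log2 unit at the median. The lowered genes had a like median in WT mice, which lack the knock-in (-0.020), and not in zQ175 mice of 2[4]6 (-0.0025), while the raised genes had 0.011 and 0.029 there. With a genotype threshold of 0.01, the shares were 77% positive of 1252 raised genes and 67.6% negative of 1599 lowered genes.

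Examples in both directions are Cidea, a lipid droplet protein (0.29 ± 0.05 here, 0.77 in untreated zQ175 over WT), Scn9a (0.32 and 1.23), Lhx9, a LIM homeobox factor (0.24 and 0.38), Vip (-0.28 and -0.42), Wfs1 (-0.43 and -1.09) and Il33 (-0.34 and -0.43). Exceptions were Syn2 (0.16 and -0.12) and Camkk2, a calmodulin-dependent kinase kinase (0.18 and -0.28). Cidea, Lhx9 and Camkk2 were picked after their values were seen. Against NTC, 77 of the zQ175-raised genes were lower and 33 higher with HTT-10150, and 403 lower and 18 higher with HTT-634.486 (medians -0.014 and -0.040). Of the zQ175-lowered genes, 109 were higher and 33 lower with HTT-10150, and 391 higher and 64 lower with the pair (medians 0.016 and 0.044). Over all 16025 genes, 345 were higher and 286 lower than NTC with HTT-10150, and 921 higher and 1129 lower with the pair. All these counts share the NTC mice.

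**Figure D5:**
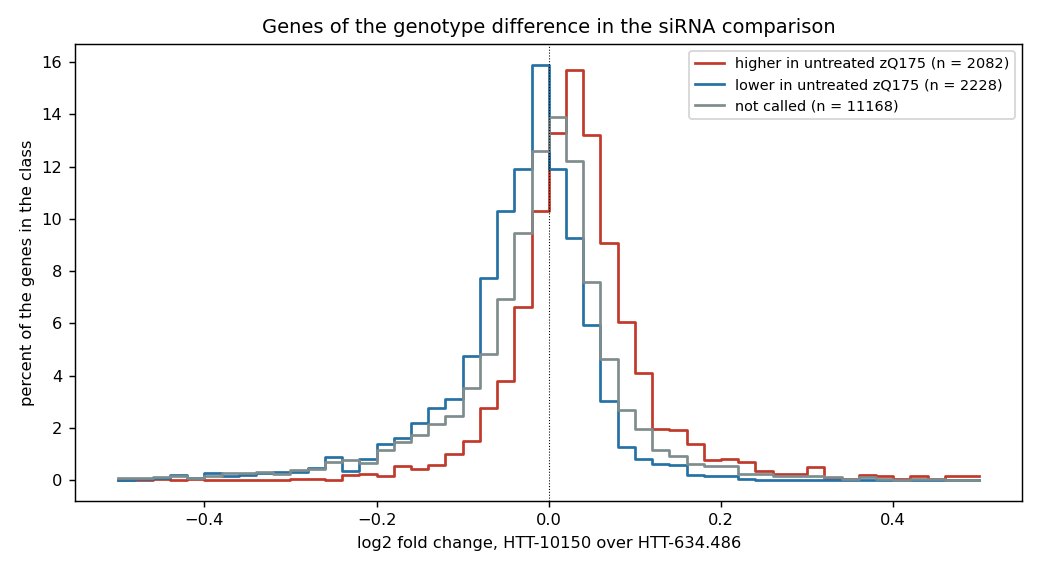
Share of genes in percent (vertical axis) by log2 fold change of HTT-10150 over HTT-634.486 (horizontal axis, -0.5 to 0.5) for genes higher in untreated zQ175 than in WT (red, n = 2082), lower (blue, n = 2228) and not called (grey, n = 11168). The red line is shifted to the right, with a median of 0.03, and the blue line to the left, with a median of -0.02; 12, 4 and 122 genes lie outside the axis.

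Within 1 regimen the contrast called 7 genes in 6[4]10 (0.0445%; 4 raised, 3 lowered; 1306 at an unadjusted p under 0.05; 25 with DESeq2) and 53 in 2.6[8]10 (0.337%; 35 raised, 18 lowered; 1239 unadjusted; 87 with DESeq2). No gene differed between the regimens (0 of 15743 with edgeR, 488 at an unadjusted p under 0.05, 0 with DESeq2). Among the genes nearest to a call were Gm14169 (-0.09 in 6[4]10 and 0.36 in 2.6[8]10), Shisa2 (-0.18 and 0.36) and Msmo1, a sterol enzyme (-0.10 and 0.14), each with adjusted p = 1.0. The difference between the sexes, as labelled, likewise called 0 genes (750 unadjusted, 0 with DESeq2), with Nckap5l (-0.11 in males, 0.18 in females), Fundc2, Cnbd2, Adra2c and Jmjd7 nearest (adjusted p = 0.906). A p that misses the threshold does not show that the regimens or sexes respond alike.

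In WT mice of the same regimens the contrast called 40 of 15923 genes (0.251%; 14 raised, 26 lowered). Htt fell by 0.98 (adjusted p = 7.34e-07), Fcrls rose by 0.41 (adjusted p = 0.000166) and Olfml3 by 0.40 (adjusted p = 0.00121), and Clec7a had -0.77 (adjusted p = 0.249). These WT libraries are not among the 32, and 75 of the 89 raised genes were positive there and 55 of the 62 lowered genes negative, with 8 called in each set. The striatal and the choroid plexus lists had medians of 1.31 and 1.13 in WT mice, against -0.09 and -0.75 in zQ175, with 0 genes called. Their part in the WT values was not tested. The difference between zQ175 and WT mice called 0 genes (890 unadjusted, 0 with DESeq2). Nearest were Ccdc103 (-0.12 in zQ175, 0.37 in WT), mt-Nd6, Ppl, Kmt2c and Clec2d (adjusted p = 0.839).

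In zQ175 mice treated at 2 and collected at 6 months (2[4]6, 8 against 8), 139 of 15843 genes were called (0.877%; 112 raised, 27 lowered). Of the 10-month genes, 84 of 89 raised ones were positive and 55 of 61 tested lowered ones negative, with 6 and 2 called. Fcrls rose there by 0.42 (adjusted p = 0.00497), Olfml3 by 0.30 (adjusted p = 0.0417) and Csf1r by 0.26 (adjusted p = 0.0294), while Htt had -0.43 (adjusted p = 0.188). Mal, Mbp and Cd52 had -0.45, -0.41 and -0.88 (adjusted p = 0.0785, 0.0764 and 0.0775). Of the 24 homeostatic microglia genes, 4 rose in these younger mice (median 0.17). Vessel markers moved with them there: 7 of 14 endothelial markers (median 0.42) and 4 of 12 pericyte and smooth muscle markers (median 0.32) rose, and their part in the microglial values was not tested.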

How the data were processed

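The deposited table holds expected counts (estimated reads per gene). Per the submitters' processing notes, the authors used RSEM and GRCm38; the aligner, software versions and annotation release were not given in the sources used here. RNA was extracted with a Qiagen RNeasy kit and polyA-selected, per the labels' protocols. All values are whole, so none was rounded. Of 41135 features, 41128 carry a gene identifier, of which 40254 were named from GENCODE vM21; the other 7 stayed out of the tests. Counts were filtered with filterByExpr by group, scaled with TMM factors and tested with edgeR 4.0.16 (robust quasi-likelihood) in a model of regimen, labelled sex and treatment over the 32 libraries. Regimens, sexes, genotypes and the values against NTC came from models with 1 mean per group, the latter over 64 zQ175 libraries. Adjusted p-values are Benjamini-Hochberg over all genes tested, with 0.05 as the threshold. Levels are CPM with TMM factors of these 64 libraries; log2 CPM had a prior count of 2. Errors come from the spread between mice, which includes counting noise; Without molecular identifiers, PCR copies count as reads.

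The members, the 40 gene lists and the alternatives were chosen with earlier results of these data known. Named genes are the 12 most raised and 12 most lowered called genes whose log2 CPM averaged 1 or more and had 1 sign in both regimens and sexes, the 5 nearest to a call in each interaction, and up to 4 genes of smallest adjusted p per list. Further called members of lists were added after their values were seen, and a few genes that the rule names are not reported here. Alternatives were DESeq2 1.42.0, limma 3.58.1 (voom), other scaling and filters, blocks, covariates and leaving out each mouse. R 4.3.3 and Python 3.11.15 were used.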

Additional observations from a re-analysis of the deposited data

Results flagged for a closer look

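In 7 of 96 checks, each of 1 gene in 1 group of 8 mice, 1 mouse lay apart from the other 7 by Dixon's ratio (95% critical value for 8). Chance gives about 5% of independent checks, and these are not independent, as the same mice recur across genes. With HTT-634.486 in 6[4]10, male_4 had 21.54 CPM of Fcrls (nearest mouse 17.33) and 2.907 CPM of Myo18b (2.475), and male_1 had 7.351 CPM of Lama4 (5.289). With HTT-634.486 in 2.6[8]10, female_4 had 6.791 CPM of Pax2 (3.411), and male_4 had low levels of Pde8a (25.09, nearest 28.59) and Wfs1 (63.52, nearest 87.87). With HTT-10150 in 6[4]10, male_2 had 24.55 CPM of Pax2 (11.23).

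A second Htt feature, marked HD in the table and outside the gene tests, had 43 reads in 23 of the 32 libraries, with at most 3 in a library, and 1 read in 1 of the 32 WT libraries of the same treatments and regimens.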

How the results depend on the processing

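No result reversed. The 89 raised and 62 lowered genes became 170 and 132 with DESeq2 (302 in all), 93 and 70 with limma-voom, 89 and 62 with DESeq2 size factors, 83 and 49 without the filter on low counts, 82 and 70 with a mean of at least 1 CPM, 87 and 53 without the sex term, 211 in all (82 lowered) with all 64 zQ175 libraries, 85 and 71 without the 2 mice whose sex transcripts went against their labels and, added after the data were seen, 212 in all (105 lowered) with the choroid plexus level as a covariate (57 zQ175-lowered genes lowered). Leaving out 1 mouse gave 75 and 46 (without male_2 of 2.6[8]10 HTT-634.486) to 123 and 103 (without male_4 of 6[4]10 HTT-634.486). DESeq2 called 25 genes in 6[4]10 and 87 in 2.6[8]10. The Htt difference of -57.4 CPM was -56.6 without TMM factors and -62.45 to -54.98 without 1 mouse. Of 31 named genes, 23 kept their call in all 44 settings; Igf2os, Wfs1 and Mal lost it only with the library number as a block (adjusted p = 0.0698, 0.0869 and 0.0808). That number, of unstated meaning, has 16 values here, of which 13 span both arms (29 libraries); with it as a block 66 genes rose and 42 fell, the fewest of all settings (93 shared). The causes of these shifts were not tested.

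Replicate numbers did not pair the mice: 16 same-numbered pairs had correlations of -0.266 to 0.216, 4 above 0.1, and 9 of 32 libraries correlated best with their own number. With the replicate number as a block, 86 genes rose and 57 fell (120 shared with the fit without it), and 5 myelin genes fell instead of 3, as also without the 2 mice named above. Mbp was not among the 5 with this block. The calls of Mbp and Cldn11 were also lost without the filter on low counts, without the sex term and with all 64 zQ175 libraries.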
